A study of Mus musculus with 5 samples.

Results

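The oligoadenylate synthetase (Oas) family was examined in libraries labelled as colorectal cancer (CRC) tumour, from C57BL/6 mice. Of these, 3 came from mice held at 30 °C and 2 from mice held at 4 °C, for 2 weeks in both groups. The 8 family members, Oas1a, Oas1b, Oas1c, Oas1g, Oas2, Oas3, Oasl1 and Oasl2, were chosen by gene name with earlier values of these same 5 libraries known, so their differences between the temperatures are given as a description and without a test. All 8 were found among 54113 named entries of the count table, and all 8 passed the filter on low counts that left 16133 genes. The study used implants of the mouse MC-38 colon adenocarcinoma line, the host strain was the same in both groups, and 30 °C is the thermoneutral control in which a mouse needs no extra heat production. The labels give the source of every library as tumour tissue, and they give neither the age nor the sex of the mice.

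Oas enzymes are cytoplasmic sensors of double-stranded RNA. When bound to it they join ATP into 2′-5′-linked oligoadenylates, a second messenger of the antiviral state that makes infected cells break down RNA. Transcription of most family members is induced by type I interferon through the complex ISGF3, which binds the interferon-stimulated response element (ISRE). Mice carry many copies of Oas1, and not every member makes oligoadenylates: Oas1b of C57BL/6 is a truncated form, Oas1c and Oasl1 lack the synthetase activity, and Oasl1 is known as a brake on translation of Irf7.

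The family lies on chromosome 5 (GRCm38, GENCODE M21 gene models). Oasl2 (chr5:114896936-114912234) and Oasl1 (chr5:114923240-114937915) are neighbours on the plus strand, in a stretch of 41.0 kb. The other members are 5.79 Mb away in a cluster of 10 Oas genes that spans 191 kb, where Oas2 (chr5:120730333-120749853), Oas3 (chr5:120753098-120777661), Oas1c (chr5:120800194-120812514), Oas1g (chr5:120876142-120887613) and Oas1a (chr5:120896256-120907521) are read from the minus strand. Oas1b (chr5:120812635-120824163) is read from the plus strand and is annotated as a polymorphic pseudogene. It starts 121 bases from the start of Oas1c, head to head with it.

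**Figure D1:**
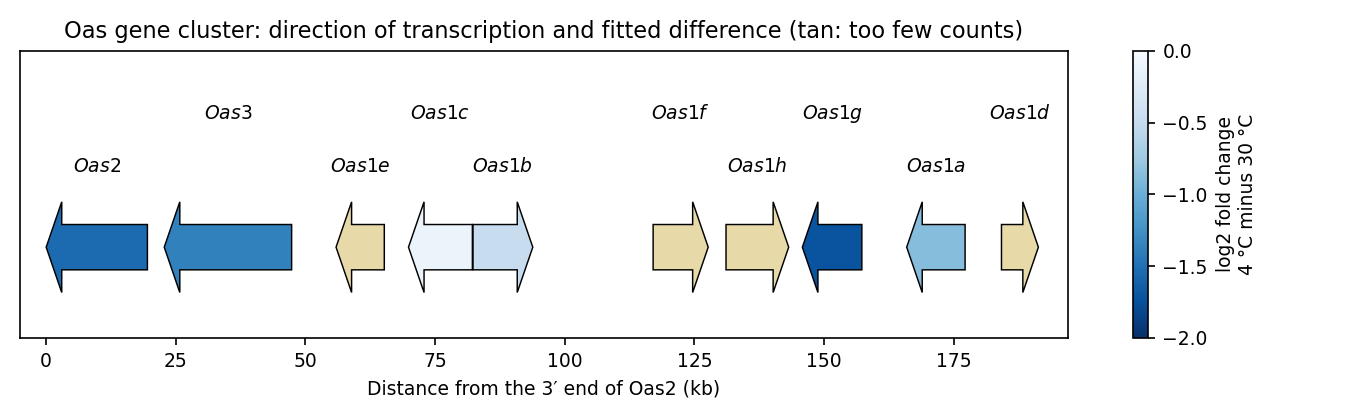
Map of the chromosome 5 cluster, with distance in kb from the 3′ end of Oas2 on the horizontal axis, arrows in the direction of transcription and colour for the fitted log2 fold change (4 °C minus 30 °C). Oas2, Oas3, Oas1g and Oas1a are dark to mid blue, the head-to-head pair Oas1c and Oas1b is pale (−0.11 and −0.48), and the 4 tan genes had too few counts to be fitted.

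The promoter sequences are shown because the ISRE is the element through which interferon is known to act on these genes. RefSeq promoter windows on GRCm38 (250 bases before to 50 after the start) were given for 6 of the 8 members, and the letters GAAANNGAAA were searched on both strands. They occurred in 4 of the 6 windows, against 3.44% of all 32851 windows. Each sequence below holds 30 bases in the direction in which the letters were found, with the matched stretch in capitals. The capitals all lie in the promoter, before the start of the named gene. For Oas1g the last bases of the run reach into the first exon, and for Oas1b the run ends on its first base. For Oas1a they reach into the first exon by the RefSeq start of the window only. The GENCODE start given above (120907521) lies outside the run.
Oas3, chr5:120777715-120777744, minus strand: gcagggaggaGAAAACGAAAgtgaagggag
Oas1a, chr5:120907523-120907552, minus strand: ttctcggGAAATGGAAACTGAAAatctact
Oas1g, chr5:120887609-120887638, minus strand: ttctcggGAAATGGAAACTGAAAatctact
Oas1c and Oas1b, chr5:120812606-120812635, plus strand: ttcccggGAAATGGAAACTGAAAgtcccat

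The runs of Oas1a and Oas1g were identical over all 30 bases, and in both the capitals hold 2 overlapping matches. The same capitals stood in the window of Oas1c, but on the strand opposite to that gene, where they end 7 bases before the first base of Oas1b. Their distance to the RefSeq start was therefore −18 to −3 bases in Oas1g and −20 to −5 in Oas1a, and −114 to −99 when counted from Oas1c. In Oas3 a single match lay at −75 to −66. The windows of Oasl1 and Oasl2 held no match, which says only that these letters are absent from those bases. The gamma-activated site TTCNNNGAA, which reads the same on both strands, occurred in the window of Oas1a alone among the members, and in 8.30% of all windows. Among the other interferon-induced genes listed, 11 of 29 with a window held the ISRE letters.

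The libraries held 16191708 to 20320525 counts on named genes, and each level is given after scaling this total to 1000000 (CPM). The 30 °C replicate 2 stands apart, with 27.7% of its counts on 24 pancreatic acinar genes against at most 0.269% in the other libraries, which lowers the plain CPM of every other gene in it. Fitted differences were therefore taken after TMM scaling, which sets libraries level on the bulk of their genes. Markers of the labelled tumour were low: Epcam was between 7.91 and 11.4 CPM, Krt19 and Cdx2 were at 0 in 2 libraries each, and the 10 colon epithelial markers summed to 20.6 to 126 CPM. The 10 erythroblast markers summed to 15841 to 42259 CPM and the 8 B cell markers to 1319 to 3984 CPM. Of 6 splenic mesenchyme markers, 5 had more than 3 counts in every library. Among them, Tlx1 was at 10.5 to 30.2 CPM, Nkx2-3 at 10.6 to 27.3 CPM and Nkx2-5 at 2.90 to 9.08 CPM. The remaining marker, Ccl21a, was at most at 1.17 CPM. With these markers the identity of the labelled tissue is in doubt, and how much of each library came from tumour was not tested. In bulk samples such as these, fewer cells of a type and less RNA per cell cannot be told apart.

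The family as a whole was lower at 4 °C. Its summed level was 387, 276 and 316 CPM in 30 °C replicates 1, 2 and 3, and 183 and 156 CPM in the 4 °C replicates 1 and 2. Every 30 °C library was above both 4 °C libraries, with means of 326 ± 55.9 CPM (SD, n = 3) and 170 ± 19.2 CPM (SD, n = 2). Without the acinar genes in the totals, 30 °C replicate 2 was at 382 CPM and the ratio of the means changed from 1.92 to 2.13. The median fitted log2 fold change (4 °C minus 30 °C throughout) was −0.99 over the 8 members and 0.0064 over all 16133 genes. Without 30 °C replicate 2, the members' median was −0.94.

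**Figure D2:**
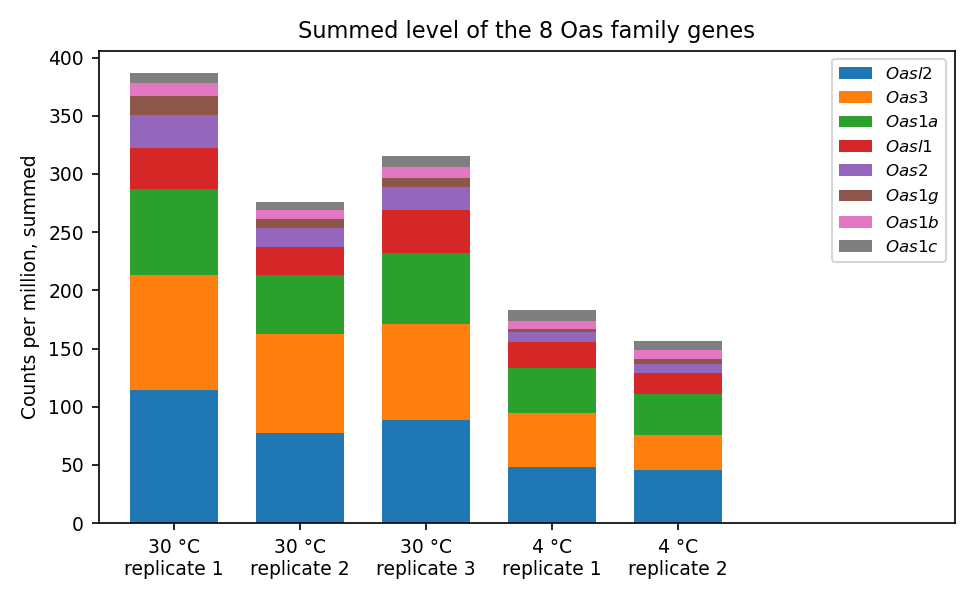
Summed CPM of the 8 family members in each library, stacked by gene, on an axis from 0. The 30 °C bars reach 276 to 387 CPM and the 4 °C bars 156 and 183 CPM, and Oasl2, Oas3 and Oas1a make up most of each bar.

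No gene in the table passed an adjusted p of 0.05 by edgeR's quasi-likelihood test (0% of genes, smallest adjusted p 0.689), and so no member did. At an unadjusted p under 0.05, 6 of the 8 members were among the 673 genes lower at 4 °C, which are 4.17% of the genes tested. This count was 5 without 4 °C replicate 1 and 4 with scaling by library totals alone. By the Wald test of DESeq2 with Benjamini-Hochberg adjustment, the same count of 6 members stood among 92 lower genes (0.57%). In plain CPM, 6 members had both 4 °C libraries below all 30 °C libraries, against 5.41% of the genes tested. As these contrasts chose the members, nothing is read from the counts.

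Oas3 and Oas2 are the large synthetases, built from repeated Oas units, and Oas3 is known as a sensor of long double-stranded RNA. Oas3 was at 99.5, 84.6 and 82.1 CPM at 30 °C and at 45.8 and 30.3 CPM at 4 °C, a fitted log2 fold change of −1.38 ± 0.27 (SE). Oas2 was at 28.3, 16.3 and 19.7 CPM at 30 °C and at 8.54 and 7.41 CPM at 4 °C, with a log2 fold change of −1.54 ± 0.25. In both genes the groups were apart. The 4 °C replicates lay close together for Oas2, whereas replicate 2 was the lower for Oas3.

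Among the single-unit synthetases, Oas1a was by far the most abundant. It was at 73.7, 50.5 and 61.5 CPM at 30 °C and at 39.0 and 35.1 CPM at 4 °C, a log2 fold change of −0.87 ± 0.19. Its near copy Oas1g was at 15.96, 7.80 and 7.14 CPM at 30 °C and at 2.42 and 4.26 CPM at 4 °C, with a log2 fold change of −1.73 ± 0.48, the largest error of the family. Without 4 °C replicate 1 it was −1.35, less than Oas3 (−1.66) and Oas2 (−1.61) in that fit. The 30 °C replicate 1 was the high library of Oas1g, and the 4 °C replicate 1 was the low library, with 45 counts.

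Oas1a and Oas1g share stretches of sequence that short reads may not separate. Of the 50-base runs in the annotated transcripts of Oas1a, 57.6% also occurred in Oas1g, and 45.2% of those of Oas1g occurred in Oas1a. The 50 bases are a chosen length and not the read length, so these shares do not measure how many reads fit both genes. How reads that fit both genes were counted is not given in the sources used here, so the values of each are uncertain. Oas1a took 82.2%, 86.6% and 89.6% of the counts of the pair at 30 °C, and 94.2% and 89.2% at 4 °C, so these shares overlapped between the groups. By contrast, Oas2, Oas3, Oasl1 and Oasl2 shared no 50-base run with another family gene, Oas1b shared 1.17% of its runs and Oas1c 9.82%.

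The synthetase-like genes differed from each other in the size of the difference. Oasl2, whose product keeps the enzyme activity in mice, had the most counts of the members in 4 of 5 libraries, with Oas3 ahead in 30 °C replicate 2. It was at 114, 77.8 and 88.8 CPM at 30 °C and at 48.6 and 45.5 CPM at 4 °C, with a log2 fold change of −1.12 ± 0.20. Oasl1, the Irf7 brake, was at 35.0, 24.6 and 36.9 CPM at 30 °C and at 22.1 and 18.5 CPM at 4 °C, with a log2 fold change of −0.78 ± 0.17. The gap between the groups in plain CPM was narrow for Oasl1, between 24.6 CPM in 30 °C replicate 2 and 22.1 CPM in 4 °C replicate 1. Without the acinar genes in the total, the 30 °C replicate 2 was at 34.0 CPM and close to the other 30 °C libraries.

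The head-to-head pair without a working synthetase differed least. Oas1b was at 11.5, 7.14 and 9.74 CPM at 30 °C and at 7.15 and 7.47 CPM at 4 °C, with a log2 fold change of −0.48 ± 0.24, and its groups overlapped through 30 °C replicate 2. With TMM scaling, or without the acinar genes in the totals, they did not overlap and 7 members were apart. Oas1c was at 8.46, 7.44 and 9.89 CPM at 30 °C and at 9.78 and 7.66 CPM at 4 °C. Its values were mixed between the groups, its log2 fold change of −0.11 ± 0.25 was smaller than its error, and the sign turned to 0.019 with scaling by library totals alone and to 0.0074 without 4 °C replicate 2. Oas1b and Oas1c together gave 5.16% to 6.22% of the family's counts at 30 °C and 9.23% and 9.69% at 4 °C.

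**Figure D3:**
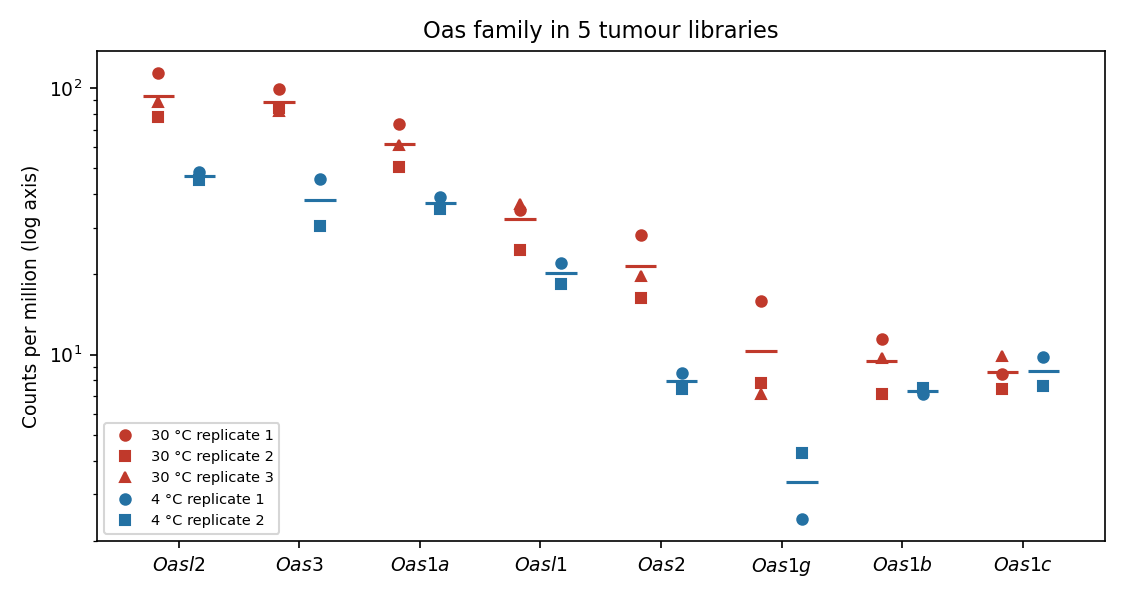
CPM on a log axis for each family member, with 30 °C libraries in red, 4 °C libraries in blue, marker shape for the replicate and a bar at the group mean. Blue lies below red for Oasl2, Oas3, Oas1a, Oasl1, Oas2 and Oas1g, and the colours overlap for Oas1b and Oas1c.

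The precision of these levels was set by counts between 45 and 1995 per member and library. The 95% Wilson interval had a half-width of 4.39% of the value at its narrowest and 29.5% at its widest (Oas1g in 4 °C replicate 1), which covers counting error only. For the other 4 Oas1 paralogs the libraries held almost no reads. Oas1f had 0 counts in all 5 libraries, Oas1h and Oas1d had at most 2, and Oas1e, which neighbours Oas3, had 3, 8, 11, 7 and 8. A count of 3 equals 0.148 to 0.185 CPM at these depths.

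Levels of different genes were compared per kb of exon (union of the annotated exons). At 30 °C, Oas1a led with 32.8 ± 6.16 CPM per kb (SD, n = 3), followed by Oasl2 with 14.7 ± 2.92, Oas3 with 12.6 ± 1.33 and Oasl1 with 12.3 ± 2.54 CPM per kb. The low members were Oas2 with 4.82 ± 1.38, Oas1b with 4.75 ± 1.10, Oas1g with 4.40 ± 2.10 and Oas1c with 3.58 ± 0.512 CPM per kb. Oas1a was above Oasl2 in 5 of 5 libraries, whereas the ranges of Oasl2 and Oas3, of Oas3 and Oasl1, and of all neighbours among the low members overlapped at 30 °C. At 4 °C, Oas1a was still first with 19.7 ± 1.43 CPM per kb (SD, n = 2), and Oas2 was at 1.79 ± 0.180 CPM per kb, below Oas1b with 3.67 ± 0.116 and Oas1c with 3.62 ± 0.623. With the longest transcript as the length, the mean level of Oasl2 over the 5 libraries was 24.0 in place of 11.8 CPM per kb, close to 27.6 for Oas1a.

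Downstream of the synthetases, 3 listed genes that are no members were Pde12 and Akap7, phosphodiesterases that degrade 2′-5′ oligoadenylates, and Abce1, a ribosome recycling factor also known to restrain the oligoadenylate pathway. Their groups overlapped, and none passed an unadjusted p of 0.05. Akap7 was at 13.7, 8.83 and 13.5 CPM at 30 °C and at 9.56 and 9.33 CPM at 4 °C, with a log2 fold change of −0.45 ± 0.21 and an adjusted p of 0.756 by edgeR's quasi-likelihood test. Abce1 had −0.14 ± 0.17 and Pde12 had −0.072 ± 0.19, both smaller than their error. The median log2 fold change over the 3 was −0.14, and it was −0.28 without 4 °C replicate 1 and −0.026 without 4 °C replicate 2.

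Oas enzymes share their ligand with the other sensors of double-stranded RNA, of which 9 were listed. Of these, 3 were lower at an unadjusted p under 0.05 and 0 were higher, against 4.17% and 2.58% of all genes. Dhx58 (LGP2, a regulator of the RIG-I-like receptors) was at 48.5, 36.8 and 49.6 CPM at 30 °C and at 29.6 and 27.9 CPM at 4 °C, with a log2 fold change of −0.77 ± 0.17. Ifih1 (MDA5, a receptor for long double-stranded RNA) was at 56.5, 43.6 and 58.9 CPM at 30 °C and at 39.6 and 30.9 CPM at 4 °C, with a log2 fold change of −0.71 ± 0.18. Both had groups apart, with 4 °C lower. Mavs, the adaptor of the RIG-I-like receptors, which was named after its values were seen, had groups apart the other way, at 55.4 and 48.2 CPM at 4 °C against 43.7, 28.1 and 47.1 CPM at 30 °C, with a log2 fold change of 0.29 ± 0.16. Eif2ak2 (PKR, the kinase that halts translation on double-stranded RNA) had the largest fitted difference of the list, −0.99 ± 0.39, but its 4 °C replicate 1 lay at 45.5 CPM, above the lowest 30 °C library at 44.6 CPM. Of the 9 sensors, 6 had a log2 fold change below 0 and 3 above. Their median was −0.24, against 0.0064 over all 16133 genes. The sensors' median was −0.54 without 4 °C replicate 1 and −0.074 without 4 °C replicate 2.

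The transcription factors of the Irf family did not share a direction. Irf7, the factor that amplifies interferon production, was at 205, 177 and 207 CPM at 30 °C and at 108 and 97.4 CPM at 4 °C. Its groups were far apart relative to their spread, and its log2 fold change of −1.07 ± 0.19 was close to that of Oasl2. Irf3, the constitutive factor upstream of interferon, was higher at 4 °C, at 74.3 and 91.3 CPM against 60.7, 38.6 and 64.6 CPM at 30 °C, with a log2 fold change of 0.51 ± 0.18. Irf5, another activator of inflammatory genes, had 0.41 ± 0.23 with overlapping groups. Over the 8 Irf genes the median was 0.31. At an unadjusted p under 0.05, 1 was lower and 1 higher, against 4.17% and 2.58% of all genes. By edgeR's quasi-likelihood test with adjustment over all genes neither Irf7 (adjusted p 0.689) nor Irf3 (0.706) passed, whereas by DESeq2 the adjusted p of Irf7 was 0.00125.

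The 14 genes of interferon signalling had a median log2 fold change of −0.080. At an unadjusted p under 0.05, 1 of them was lower and 0 were higher, against 4.17% and 2.58% of all genes. That gene was Ifnlr1, the receptor chain for type III interferon, at 5.09, 3.27 and 3.84 CPM at 30 °C and at 2.47 and 1.98 CPM at 4 °C, with a log2 fold change of −0.99 ± 0.34. Usp18, which dampens the type I receptor, had −0.43 ± 0.23 and Irf9, the DNA-binding part of ISGF3, had −0.30 ± 0.17, both with overlapping groups. The interferons themselves were hardly read: of 20 interferon genes, 16 had 0 counts in all 5 libraries and 3 had at most 3 counts in any library. The remaining gene, Ifng, the type II interferon of lymphocytes, had 17, 13 and 22 counts at 30 °C and 20 and 21 at 4 °C. A difference in type I interferon transcripts was not detectable at this depth.

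Among 36 other interferon-induced effectors, 35 were tested. Of these, 30 had a log2 fold change below 0, where the median over all 16133 genes was 0.0064. At an unadjusted p under 0.05, 6 (17.1%) were lower and 0 were higher, against 4.17% and 2.58% of all genes. Ifi44, an interferon-induced cytoplasmic protein, was at 16.6, 11.7 and 15.1 CPM at 30 °C and at 6.45 and 6.61 CPM at 4 °C, with a log2 fold change of −1.27 ± 0.22. Rtp4, a receptor chaperone induced by interferon, and Cmpk2, a mitochondrial nucleotide kinase, had log2 fold changes of −0.82 ± 0.20 and −0.82 ± 0.23, and in both the groups were apart. By DESeq2 with adjustment over all genes, Ifi44, Dhx58 and Irf7 passed among all these non-members, where 0.57% of all genes were called lower. The median over the 35 effectors was −0.33, against −0.99 over the 8 members.

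The family's level was also set against the effectors within each library, which does not depend on the scaling of the library. For each 1000 CPM of summed effectors the family held 91.1, 83.2 and 82.7 CPM at 30 °C and 51.8 and 49.8 CPM at 4 °C. The summed effectors alone overlapped, with 4242, 3319 and 3816 CPM at 30 °C and 3538 and 3137 CPM at 4 °C. The members' choice rests on the same contrast, so this ratio too is a description.

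**Figure D4:**
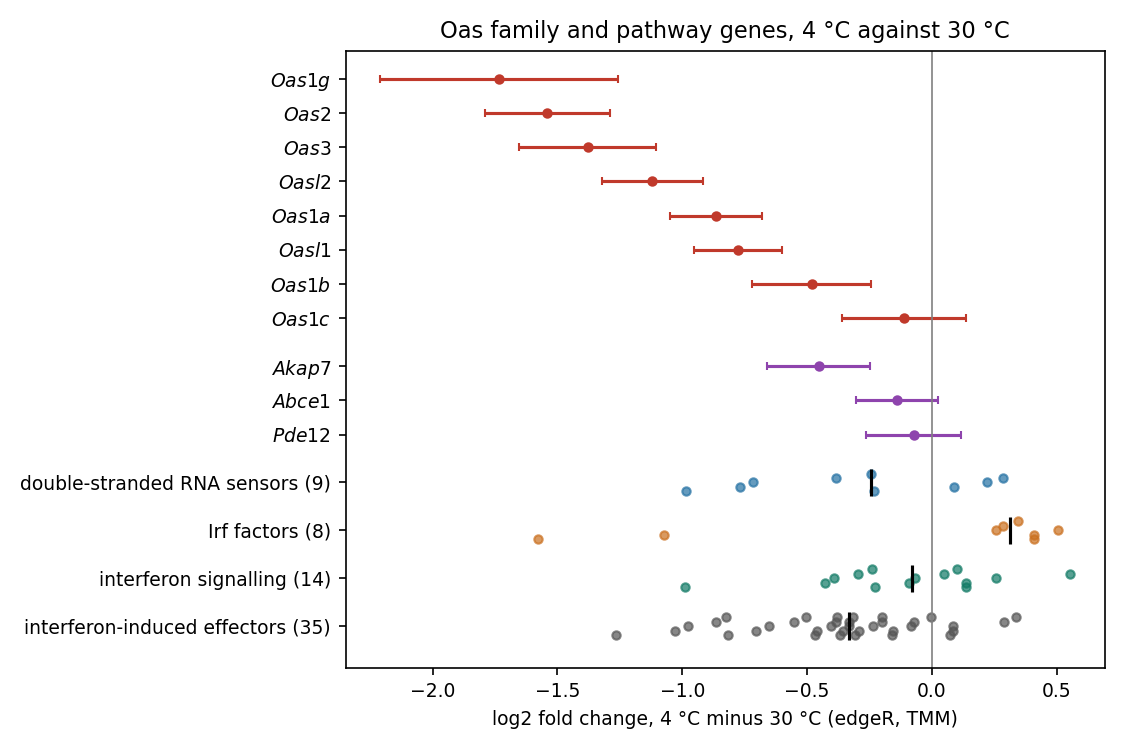
Fitted log2 fold change (4 °C minus 30 °C) for each family member and the 3 downstream genes, with bars of 1 SE, and for the genes of 4 other lists as points, with a black line at each list's median and the number of genes in brackets. The members lie between −1.73 and −0.11, while the list medians lie between −0.33 and 0.31.

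The members were also compared by their pattern across the 5 libraries. The pattern of a gene was taken as its log2 CPM after TMM scaling minus its mean over the libraries, and likeness as the root mean square difference between patterns. From the mean pattern of the 8 members, Oasl2 (0.062) and Oas1a (0.067) differed least and Oas1c (0.47) and Oas1g (0.51) most. The closest pairs were Oas1a with Oasl2 and Oas1a with Oasl1 (both 0.13), and the most unlike pair was Oas1c with Oas1g (0.95). Oas1b differed from Oas2 and from Oas3 by 0.52 and from Oas1g by 0.70. The median difference of all genes from the mean pattern was 0.59, which is not a measure of pairs. The mean pattern of the 8 members was 0.53, 0.51 and 0.15 in 30 °C replicates 1, 2 and 3 and −0.58 and −0.61 at 4 °C. On this scale 30 °C replicate 3 was the 30 °C library nearest to the 4 °C libraries, whereas in plain CPM the lowest 30 °C sum was that of replicate 2.

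Of 16123 tested genes that are no members, the 5 most like this mean pattern were Neil3, a DNA glycosylase, at a root mean square difference of 0.045, Cpox, an enzyme of haem synthesis, at 0.060, Gas2l3, a cytoskeletal linker, at 0.069, Ifnlr1 at 0.074, and Bcl2l15, a Bcl2 family gene with at most 1.54 CPM, at 0.084. Neil3 was at 38.3, 25.3 and 28.2 CPM at 30 °C and at 16.7 and 15.9 CPM at 4 °C. Cpox was at 439, 317 and 334 CPM at 30 °C and at 199 and 190 CPM at 4 °C. Akap7 was less like the members, at 0.29.

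**Figure D5:**
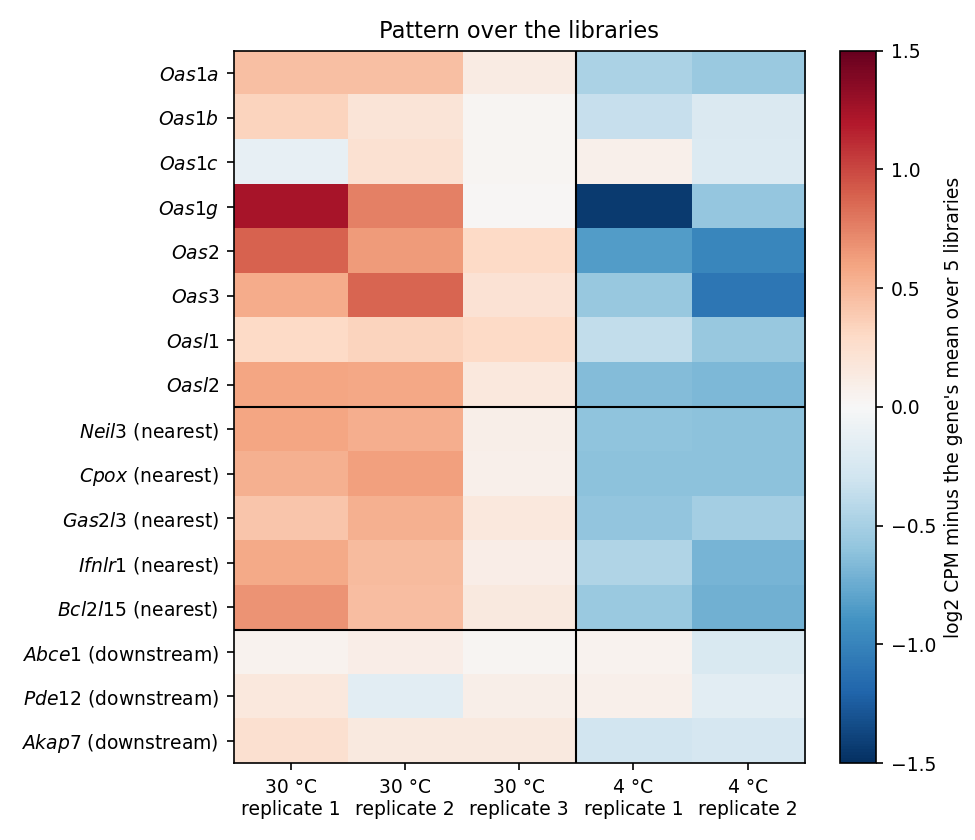
Log2 CPM minus the gene's mean over the 5 libraries (colour, red above and blue below the mean) for the members, the 5 most like non-members and the 3 downstream genes, by library. Most members are red in the 30 °C libraries, with replicate 3 often the palest, and blue in the 4 °C libraries, while Oas1c, Abce1 and Pde12 are pale throughout.

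Cell type markers also varied between the libraries. The 12 neutrophil markers summed to 13618, 6334 and 3466 CPM at 30 °C and to 2744 and 4190 CPM at 4 °C, and the sums overlapped. Of the 12, 4 had both 4 °C libraries below all 30 °C libraries, against 5.41% of the genes tested. The 8 T cell markers summed to 276, 221 and 479 CPM at 30 °C and to 606 and 610 CPM at 4 °C. Their sum was higher in both 4 °C libraries than in any 30 °C library. The 6 splenic mesenchyme markers were higher at 4 °C as a sum, at 87.4 and 150 CPM against 37.0 to 61.5 CPM. Erythroblast markers were also higher as a sum, at 35846 and 42259 CPM against 15841 to 31076 CPM, but overlapped when the acinar genes were left out of the totals. Siglech, the defining receptor of plasmacytoid dendritic cells and thus of a main source of type I interferon, was at 7.21, 8.41 and 19.0 CPM at 30 °C and at 18.7 and 15.4 CPM at 4 °C. The 6 listed markers of these cells summed to 177, 2496 and 437 CPM at 30 °C and to 478 and 538 CPM at 4 °C, which overlapped. This overlap rests on Klk1, which was at 2327 CPM in 30 °C replicate 2, the library high in acinar counts. In the other libraries Klk1 was between 2.63 and 35.7 CPM. Without Klk1, both 4 °C sums would lie above every 30 °C sum. Macrophage, B cell and NK cell sums overlapped between the groups. Their part in the family's difference was not tested.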

How the data were processed

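RNA of 5 libraries labelled as CRC tumour was sequenced by the authors, who deposited raw counts of reads per gene. The study's methods name featureCounts with a Gencode annotation, whereas the submitters' processing notes name fastp, HISAT, RSEM and GRCm38; strand and the handling of shared reads are not given in the sources used here. All counts were whole numbers. Entries without a gene name (0.0101% to 0.0170% of counts) were left out, and no column was left unused. Counts were filtered (filterByExpr), TMM-scaled and compared between 4 °C and 30 °C with edgeR 4.0.16 in R 4.3.3 (quasi-likelihood F-test, robust, no covariate, Benjamini-Hochberg over all genes, called at 0.05), and with DESeq2 1.42.0 as an alternative. Log2 CPM used a prior count of 2. Scripts were tested on simulated counts. Members and gene lists were chosen with earlier results of these data known. Genes named are all members, the 3 downstream genes, the other Oas paralogs, the 3 genes of smallest p in each other list and the 5 most like in pattern. A few genes that the rule or a list would add were left out of the text and the counts. Genes named for cell types or for library content come from the marker lists. The labels give the libraries as separate samples and say no more, so p-values measure the spread between these samples. Gene models came from GENCODE M21, promoters from RefSeq on GRCm38. Alternatives are given with the limits.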

Additional observations from a re-analysis of the deposited data

How the results depend on the processing

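Under all 14 alternatives, 7 of the 8 members kept a log2 fold change below 0, and their median lay between −1.11 and −0.87. Oas1c turned to 0.019 with library totals alone and to 0.0074 without 4 °C replicate 2, and lay between −0.26 and 0.0074 with each library left out. The count of members with groups apart was 6 to 7 over the alternatives tried, 6 to 7 with each library left out. The count of genes past an adjusted p of 0.05 was 0 by edgeR, 118 with DESeq2 (6 members among them), 8 with library totals alone and 44 with the replicate block, and 0 with each library left out. Numbers shared by the groups do not show a pairing: deviations from the group means correlated across genes at −0.25 for replicate 1 and 0.26 for replicate 2, so the block is only an alternative, and 0 members were among its 44 genes. At an unadjusted p under 0.05 the count was 1090, 669 with library totals alone, and 520 to 1477 with each library left out (520 without 30 °C replicate 2, 540 without 4 °C replicate 2). Of these calls 61.7% were lower at 4 °C, 50.5% with upper-quartile scaling and 51.4% with library totals alone. With library totals alone the median of all genes was 0.11, in place of 0.0064. Members among the lower genes numbered 6, 4 with library totals alone and 5 without 4 °C replicate 1. The genes of the pathway lists past an unadjusted p of 0.05 numbered 12, 5 with library totals alone, and 6 to 15 with each library left out (6 without 30 °C replicate 2, 8 without 4 °C replicate 2). The median of the interferon signalling genes turned from −0.080 to 0.013 with library totals alone, and lay between −0.27 (without 4 °C replicate 1) and −0.0057 (without 30 °C replicate 3) with each library left out. The other medians kept their sign, with −0.54 to −0.074 for the sensors, −0.28 to −0.026 for the downstream genes and 0.19 to 0.48 for the Irf genes with each library left out, and −0.21 for the effectors with library totals alone. Where a 4 °C library was left out, the remaining one is assumed to vary like the 30 °C libraries. The causes were not tested. Oas1g, with as few as 45 counts, is limited most by depth.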
